A study of Mus musculus with 12 samples.

Results

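The genes described here make and feed the DNA replication fork: 51 genes of 23336 symbols in the table, chosen by name, with earlier results of these data known. They were grouped by complex into origin licensing (6 genes), the MCM2-7 helicase (6), helicase activation (6), initiation kinases and cyclins (5), the sliding clamp and its loader (6), the single-strand binding protein RPA (3), polymerases and primase (9), Okazaki fragment maturation (2), nucleotide supply (5) and replication-coupled chromatin (3). All 51 passed the filter on low counts. The cells are B16, an established mouse melanoma line, in 4 groups of 3 libraries each. In the first group Adar-null cells received interferon-beta (IFNb) at 1000 U/mL for 36 h. The second group is vehicle-treated Adar-null cells, kept for 36 h with PBS and bovine serum albumin. The third group is IFNb-treated control cells at the same dose and time, and the fourth is vehicle-treated control cells. Both genotypes had been transfected transiently with Cas9 plasmids, either with an sgRNA against Adar (Adar sgRNA 1) or with a non-targeting sgRNA, and were subcloned afterwards. Each genotype therefore stands for 1 guide and its subcloned cells, and a genotype difference is also a difference between subclones. The design text also mentions an interferon-gamma arm, which is not analysed here. The design text names an interferon-sensitive phenotype of cells without Adar as the reason for the series.

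Replication origins are licensed in G1 phase when the origin recognition complex (ORC), Cdc6 and Cdt1 load the MCM2-7 helicase onto DNA. At the start of S phase the kinases CDK2 with cyclin E and Cdc7 with Dbf4 turn the loaded helicase into an active one by adding Cdc45 and GINS. Polymerase alpha with primase lays primers, polymerases epsilon and delta copy the strands on the sliding clamp PCNA, and ribonucleotide reductase, thymidylate synthase and thymidine kinase supply deoxynucleotides. Many of these genes are known targets of the E2F transcription factors, which are held back by RB-family proteins in cells that do not enter S phase. Interferons of type I are known to slow proliferation in many cell types. ADAR edits double-stranded RNA and in this way lowers its recognition by cytosolic RNA sensors.

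The libraries held 5375649 to 7153480 counts, and no pair of replicates agreed within sampling noise (chi-square per degree of freedom 1.47 to 3.23). Levels below are CPM, counts relative to a library's total as adjusted by TMM, and 3 counts in a library correspond to 0.414 to 0.568 CPM. The labels do not state whether replicates are separate cultures, so the p-values measure the spread between 3 libraries a group, possibly technical alone. A gene was called at an adjusted p under 0.05 (edgeR quasi-likelihood test, Benjamini-Hochberg over 11561 genes), and values after ± are standard errors for log2 fold changes and standard deviations over 3 libraries for CPM. Adar itself had 418, 422 and 384 CPM in IFNb-treated Adar-null cells and 65.6, 56.3 and 56.7 CPM in vehicle-treated Adar-null cells. In control cells Adar had 377, 384 and 392 CPM with IFNb and 74.3, 70.3 and 71.9 CPM with vehicle. The genotypes differed by -0.28 ± 0.064 (log2) under vehicle (adjusted p = 0.0017) and by 0.085 ± 0.045 under IFNb (adjusted p = 0.0817), and a count over the whole gene does not test a small Cas9 deletion. All 7 melanocyte markers, which check the labelled melanoma line, were tested and abundant. Their summed level was 10430 to 11150 CPM in IFNb-treated Adar-null cells, 15250 to 15440 CPM in vehicle-treated Adar-null cells, 13360 to 13660 CPM in IFNb-treated control cells and 15640 to 16470 CPM in vehicle-treated control cells. Markers of other cell types were low but not all at 0. Summed fibroblast markers reached 26.8 to 34.7 CPM in IFNb-treated Adar-null cells, 25.9 to 29.8 CPM in vehicle-treated Adar-null cells, 15.2 to 17.1 CPM in IFNb-treated control cells and 17 to 27.9 CPM in vehicle-treated control cells, mostly from Col1a2 and Pdgfrb. Leukocyte, endothelial and epithelial markers summed to at most 3.88, 1.7 and 4.28 CPM in any library. Cd3e, Lum, Epcam, Krt8 and Krt18 had 0 counts in the 12 libraries, Ptprc and Itgam 1 each, Dcn and Kdr 2 each and Cdh5 3. Over the 12 libraries Col1a2 had 1002 counts, Pdgfrb 672, Cdh1 186, Cd68 147 and Col1a1 78. With IFNb, Cd68 rose in Adar-null cells (0.91 ± 0.39) and in control cells (1.33 ± 0.41), and Cdh1 fell in both (-1.66 ± 0.38 and -0.84 ± 0.34). Pecam1, below the filter, had 18 counts in IFNb-treated Adar-null cells, 2 in vehicle-treated Adar-null cells, 2 in IFNb-treated control cells and 5 in vehicle-treated control cells. The part of these markers in the members' values was not tested. The interferon-stimulated genes Ifit1, Ifit3, Rsad2, Isg15 and Mx1 rose with IFNb in both genotypes. Rn45s, the ribosomal RNA precursor, took 25.8% to 28.5% of counts in IFNb-treated Adar-null cells, 24.9% to 25.3% in IFNb-treated control cells and 21.1% to 22.9% in the vehicle groups.

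Promoter sequence is a property of these genes that the choice of members did not use directly. RefSeq promoter windows (GRCm38.p6, 250 bases before to 50 bases after an annotated start) were matched for 42 of the 51 members. The start that defines a window is not always the outer end of the gene. The window of Cdc6 (98907901 to 98908200) lies wholly inside the gene's coordinates (98907709 to 98923942). The same holds for the windows with a match of Orc1, Lig1 and Uhrf1, so their matches are not upstream of the gene's outer end. The matches before the annotated start of Mcm7 and Pola1 also lie inside the gene's coordinates. The windows were searched on both strands for 4 E2F-type octamers, TTTCCCGC, TTTCGCGC, TTTGCCGC and TTTGGCGC. At least 1 match was present for 16 of 42 members (38.1%), for 704 of 27025 genes with a promoter window (2.6%) and for 388 of 8267 tested genes outside the member list (4.69%). The MCM2-7 genes held matches for 4 of 5 matched members. Origin licensing held them for Cdc6, Cdt1 and Orc1 of 5, and the polymerases for Pola1, Pold1, Pold3 and Pole2 of 7. Single members with a match were Gins3, Cdc25a, Rfc3, Lig1 and Uhrf1, and none of the 3 RPA genes or the 5 nucleotide genes had one. A match describes letters in a window and does not show binding. The 4 matched MCM promoters, the promoter of Cdc6 (the member with the lowest level in IFNb-treated Adar-null cells) and that of Orc2 (the 1 member that rose there) are printed 5′ to 3′ on the gene's strand, with E2F-type octamers in capitals.
Mcm3 (chr1:20820263-20820562, minus strand): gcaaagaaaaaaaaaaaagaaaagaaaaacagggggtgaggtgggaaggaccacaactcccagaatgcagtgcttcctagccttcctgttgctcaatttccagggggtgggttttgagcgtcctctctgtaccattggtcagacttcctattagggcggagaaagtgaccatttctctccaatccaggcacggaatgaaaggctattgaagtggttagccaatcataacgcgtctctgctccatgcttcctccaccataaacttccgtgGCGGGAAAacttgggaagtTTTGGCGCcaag
Mcm5 (chr8:75109259-75109558, plus strand): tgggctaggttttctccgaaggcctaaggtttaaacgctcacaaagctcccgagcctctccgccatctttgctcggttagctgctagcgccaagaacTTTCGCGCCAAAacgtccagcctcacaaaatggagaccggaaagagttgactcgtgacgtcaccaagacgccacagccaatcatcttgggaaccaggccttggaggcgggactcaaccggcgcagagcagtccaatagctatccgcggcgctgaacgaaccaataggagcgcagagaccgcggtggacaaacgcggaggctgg
Mcm6 (chr1:128359656-128359955, minus strand): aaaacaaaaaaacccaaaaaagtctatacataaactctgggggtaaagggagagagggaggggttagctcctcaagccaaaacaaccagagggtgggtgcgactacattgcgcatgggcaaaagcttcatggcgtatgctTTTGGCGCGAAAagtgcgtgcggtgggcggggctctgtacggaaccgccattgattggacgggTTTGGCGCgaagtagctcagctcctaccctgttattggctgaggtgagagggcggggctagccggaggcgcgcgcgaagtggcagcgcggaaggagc
Mcm7, the first of its 2 windows (chr5:138171834-138172133, minus strand): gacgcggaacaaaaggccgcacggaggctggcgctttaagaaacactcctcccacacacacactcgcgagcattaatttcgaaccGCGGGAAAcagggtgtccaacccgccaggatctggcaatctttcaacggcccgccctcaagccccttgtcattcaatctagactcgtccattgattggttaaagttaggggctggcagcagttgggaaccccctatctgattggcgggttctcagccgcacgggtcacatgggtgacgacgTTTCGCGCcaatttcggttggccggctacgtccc
Cdc6 (chr11:98907901-98908200, plus strand): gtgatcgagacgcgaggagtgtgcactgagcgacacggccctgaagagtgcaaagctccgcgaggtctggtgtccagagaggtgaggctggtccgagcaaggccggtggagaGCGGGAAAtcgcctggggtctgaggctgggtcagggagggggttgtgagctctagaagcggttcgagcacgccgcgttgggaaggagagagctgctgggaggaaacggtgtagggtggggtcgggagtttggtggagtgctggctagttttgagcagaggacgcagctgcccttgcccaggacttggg
Orc2, the first of its 2 windows (chr1:58505060-58505359, minus strand): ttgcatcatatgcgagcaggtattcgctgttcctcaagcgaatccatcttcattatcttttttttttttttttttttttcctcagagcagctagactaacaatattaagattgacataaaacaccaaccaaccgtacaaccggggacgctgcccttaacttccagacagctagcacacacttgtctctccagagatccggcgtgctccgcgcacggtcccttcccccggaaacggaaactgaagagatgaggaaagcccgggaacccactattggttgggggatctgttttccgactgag
In Mcm5 and in Mcm6 a pair of octamers on opposite strands overlaps by 4 bases, which gives the 12-letter capital runs above. The other windows of Mcm7 and Orc2 hold no match. The median log2 fold change with IFNb in Adar-null cells was -2.58 over the 16 members with a match and -2.1 over the 26 matched members without one. Over tested genes outside the list it was -0.0695 for the 388 with a match and 0.0269 for the 7879 without. The CHR hexamers TTTGAA and TTCGAA, searched on both strands, were in the windows of 9 of 42 members (21.4%), of 5854 of 27025 genes (21.7%) and of 1317 of 8267 tested genes outside the list (15.9%). Members unmatched to a window were Ccne2, Gins1, Gins2, Gins4, Gmnn, Mcm4, Pole, Prim2 and Rfc2.

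**Figure D1:**
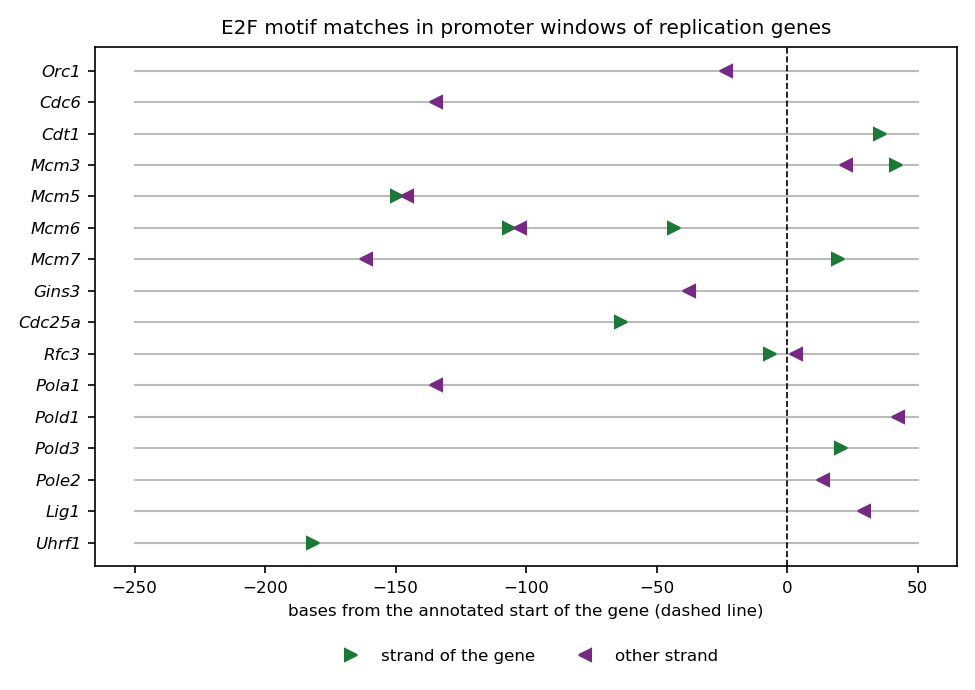
Positions of E2F-type octamers in the promoter windows of the 16 members that hold at least 1. The horizontal axis is the distance in bases from the annotated start that defines the window, which is not always the gene's outer end. The marker's direction and colour give the strand. Matches lie on both sides of the start, and those of Mcm5 and Mcm6 include an overlapping pair on opposite strands.

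In Adar-null cells nearly the whole set was lower with IFNb than with vehicle, from licensing to chromatin assembly, while in control cells 44 of 51 members had a fold change of less than 1.5 in either direction. The summed level of the 51 genes was 1099 to 1139 CPM in IFNb-treated Adar-null cells, against 4878 to 5063 CPM in vehicle-treated Adar-null cells. In control cells the sum was 5004 to 5085 CPM with IFNb, against 4572 to 4913 CPM with vehicle. The IFNb libraries of Adar-null cells thus stood apart from all 9 others, and the 3 other groups lay within a narrow band. In Adar-null cells 50 of 51 members fell with IFNb, 47 of them at least 2-fold, and Orc2 rose. The median log2 fold change was -2.26, beside 0.0122 over all genes tested. Of all 11561 genes 35.7% fell and 36.6% rose in that comparison. All 3 IFNb libraries lay below all 3 vehicle libraries for the same 50 members, against 36.2% of all genes tested. Tk1, Cdc6 and Rrm2 stood at places 16, 17 and 30 of 11561 genes when ordered from the largest fall.

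In control cells 21 members rose with IFNb, 5 fell and 25 did not pass the test, with a median log2 fold change of 0.07 beside -0.00493 over all genes tested. Of all genes 26.5% rose and 26.5% fell there, so the share of members that rose (21 of 51) was above the background and the share that fell (5 of 51) below it. The IFNb libraries lay above all vehicle libraries for 21 members and below them for 5, beside 29.1% and 28.5% of all genes. Only Ccne1, Ccne2 and Orc1 changed at least 2-fold, all upwards, beside 487 genes up and 320 down among all 11561. The 21 genes that rose in control cells all fell in Adar-null cells. The 5 that fell in control cells, Mcm2, Gins4, Dbf4, Rfc2 and Rfc4, fell in Adar-null cells too. Over the 51 members the response in Adar-null cells and the response in control cells, which share no library, had a Pearson r of -0.134 and a Spearman rho of -0.206. These points share their libraries within each response, and the values are descriptive.

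Under IFNb, 50 members were lower and 1 was higher in Adar-null than in control cells (median log2 fold change -2.46), beside 36.2% lower and 36.4% higher over all genes. The same counts held for libraries without overlap, beside 37% of all genes in each direction. Under vehicle 3 members were higher in Adar-null cells, none was lower and 48 did not pass the test (median 0.0608), beside 2.47% higher and 4.05% lower over all genes. At an unadjusted p under 0.05, 12 members were higher and 0 lower under vehicle. The share of all genes past that threshold was not counted, so no shift of the members is read from it. DESeq2 called 1 member higher and 0 lower, beside 324 of all genes called, 33.6% of them higher. With limma-voom 3 members were higher and 0 lower, beside 691 of all genes called, 37.2% of them higher. The response to IFNb was tested for a difference between genotypes with the interaction term: it was lower in Adar-null cells for 50 members and higher for Orc2, beside 30.7% lower and 28.6% higher over all genes. These RNA levels come from bulk libraries, in which fewer cells in S phase and less of these RNAs per cell cannot be told apart.

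**Figure D2:**
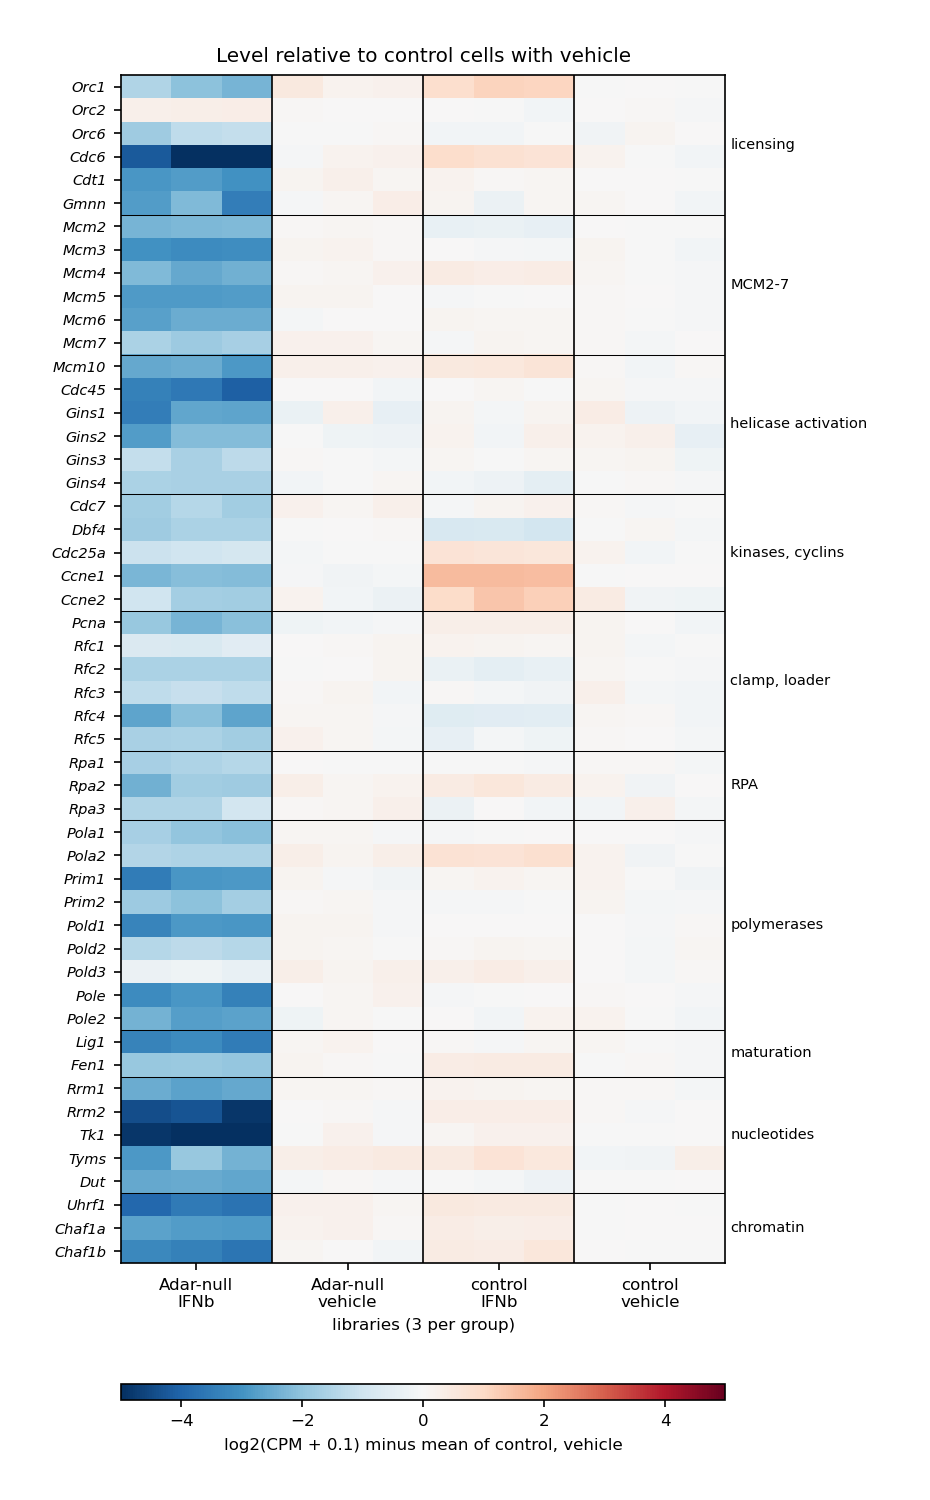
Level of each of the 51 members in each of the 12 libraries, as log2 of CPM with a pseudocount of 0.1 minus the mean of the same quantity in vehicle-treated control cells; rows are grouped by complex, columns by group, and the colour scale runs from blue (lower) to red (higher). The 3 IFNb libraries of Adar-null cells are blue in every row except Orc2, and the strongest red is that of Ccne1, Ccne2 and Orc1 in IFNb-treated control cells.

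Origin licensing genes split between 5 that fell in IFNb-treated Adar-null cells and Orc2, which rose, with a summed level of 184 ± 6.21 CPM in IFNb-treated Adar-null cells, 382 ± 5.58 CPM in vehicle-treated Adar-null cells, 389 ± 11.7 CPM in IFNb-treated control cells and 357 ± 10.2 CPM in vehicle-treated control cells. Cdc6 (chromosome 11, 98907709 to 98923942, plus strand, GRCm38) is the ATPase that joins ORC to load the helicase. Cdc6 had 1.33, 0.601 and 0.475 CPM in IFNb-treated Adar-null cells, against 25, 29.7 and 30.3 CPM in vehicle-treated Adar-null cells. In control cells Cdc6 had 48.1, 44.9 and 42.6 CPM with IFNb, against 29.5, 25.9 and 24 CPM with vehicle. The IFNb libraries of Adar-null cells lay below all others, at 7, 4 and 3 counts, and the IFNb libraries of control cells lay above all others. The fall in Adar-null cells was -5.17 ± 0.40 (log2 fold change, adjusted p = 3.36e-43), to 2.77% of the vehicle level, while control cells rose by 0.77 ± 0.10 (adjusted p = 1.99e-11). Cdt1, the partner of Cdc6 in helicase loading, had 17.6, 18.9 and 16.3 CPM in IFNb-treated Adar-null cells, against 147, 157 and 144 CPM in vehicle-treated Adar-null cells. In control cells Cdt1 had 149, 138 and 141 CPM with IFNb, against 134, 133 and 132 CPM with vehicle. It was lowest in IFNb-treated Adar-null cells in every library, with a response of -3.08 ± 0.088 there and of 0.10 ± 0.052 in control cells, the last not past the test (adjusted p = 0.0947). Gmnn, the inhibitor of Cdt1, fell by 2.90 on the log2 scale in Adar-null cells and had -0.020 ± 0.14 in control cells. Orc1, the largest ORC subunit and an ATPase, fell in Adar-null cells (-2.26 ± 0.23) and rose in control cells (1.02 ± 0.14). Its mean level was 2.97 ± 0.909 CPM in IFNb-treated Adar-null cells, 14.1 ± 1.79 CPM in vehicle-treated Adar-null cells, 23.1 ± 2.31 CPM in IFNb-treated control cells and 11.4 ± 0.239 CPM in vehicle-treated control cells. Orc6, a small ORC subunit, fell in Adar-null cells (-1.38 ± 0.10) and did not pass the test in control cells (-0.10 ± 0.078).

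Orc2 (chromosome 1, 58462771 to 58505113, minus strand), a core ORC subunit, was the single member with more RNA in IFNb-treated Adar-null cells than elsewhere. Orc2 had 135, 139 and 142 CPM in IFNb-treated Adar-null cells, against 117, 115 and 115 CPM in vehicle-treated Adar-null cells. In control cells Orc2 had 116, 110.4 and 102 CPM with IFNb, against 115, 116 and 108 CPM with vehicle. The 3 IFNb libraries of Adar-null cells lay above the 9 others, which overlapped. The rise in Adar-null cells was 0.26 ± 0.052 (adjusted p = 6.15e-06), the value in control cells was -0.052 ± 0.054 (adjusted p = 0.436), and the difference between these responses was 0.31 ± 0.075 (adjusted p = 0.000212). With library size alone Orc2 was called lower with IFNb in control cells (-0.13, adjusted p = 0.0465). Against a 1.5-fold change the rise did not pass the test (adjusted p = 1). Exons of Nif3l1 on the opposite strand cover 24.0% of the exon length of Orc2, and Nif3l1 had a log2 fold change of 0.0032 with IFNb in Adar-null cells (adjusted p = 0.972). The strand setting of the counting is not given in the sources used here, so reads of the overlap are of uncertain origin. Exon sequence is shared with a protein-coding gene by 14 members, for 13 of them on the opposite strand. Among them the shared part is 19.1% of the exon length for Rfc2, 15.4% for Rfc5 and 14.4% for Pole2. It is 13.4% for Rfc4, 10.8% for Mcm7 and 10.5% for Ccne2, and larger shares are given with their genes.

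**Figure D3:**
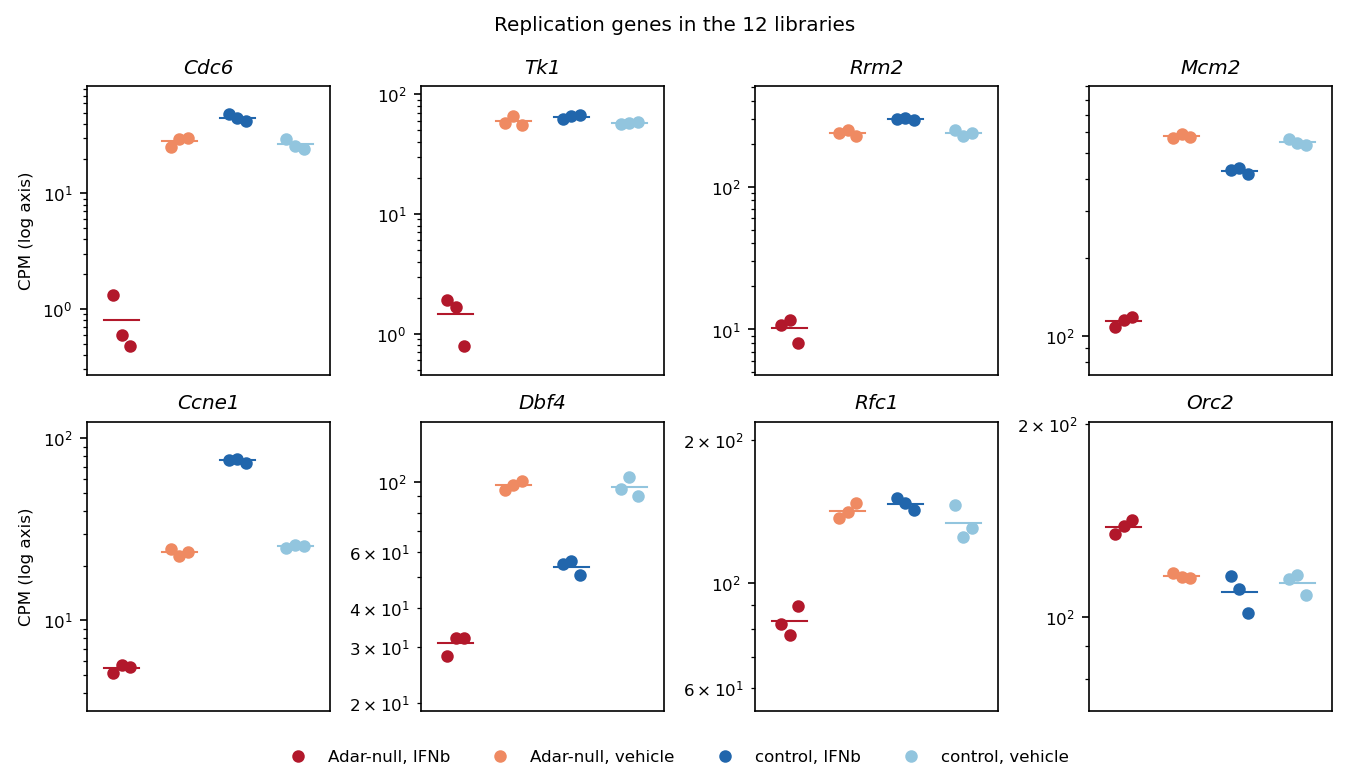
CPM (log axis, scaled separately in each panel) of 8 members in the 12 libraries; each point is a library, the line is the mean of the 3 libraries of a group, and groups run from left to right as Adar-null with IFNb, Adar-null with vehicle, control with IFNb and control with vehicle. Cdc6, Tk1, Rrm2, Mcm2, Ccne1, Dbf4 and Rfc1 are lowest in IFNb-treated Adar-null cells, Orc2 is highest there, and in control cells IFNb sets Ccne1 above and Dbf4 and Mcm2 below their vehicle levels.

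All 6 MCM2-7 genes, the subunits of the ring-shaped replicative helicase, fell with IFNb in Adar-null cells, with a summed level of 277 ± 7.42 CPM in IFNb-treated Adar-null cells, 1628 ± 32 CPM in vehicle-treated Adar-null cells, 1465 ± 16 CPM in IFNb-treated control cells and 1536 ± 65.5 CPM in vehicle-treated control cells. Mcm3 had 31.1, 28.7 and 29.3 CPM in IFNb-treated Adar-null cells, against 279.9, 288 and 269.5 CPM in vehicle-treated Adar-null cells. In control cells Mcm3 had 258, 247 and 238 CPM with IFNb, against 284, 253 and 234 CPM with vehicle. The IFNb libraries of Adar-null cells lay below the 9 others, and in control cells the IFNb and vehicle libraries overlapped. Mcm3 had the largest fall of the ring, -3.24 ± 0.071 (adjusted p = 2.11e-73), to 10.6% of the vehicle level, with -0.054 ± 0.049 in control cells (adjusted p = 0.359). Mcm7 had 31.1, 26.6 and 29.4 CPM in IFNb-treated Adar-null cells, against 108, 107 and 98.9 CPM in vehicle-treated Adar-null cells. In control cells Mcm7 had 88.8, 103 and 100.3 CPM with IFNb, against 96.3, 88.1 and 95.5 CPM with vehicle. Mcm7 was lowest in every Adar-null library with IFNb, and its fall there was the smallest of the ring at -1.86 ± 0.079 (adjusted p = 1.74e-46), with 0.070 ± 0.061 in control cells. Mcm4 (-2.54 ± 0.079), Mcm5 (-2.93 ± 0.068) and Mcm6 (-2.54 ± 0.061) fell in Adar-null cells. In control cells Mcm4 rose (0.37 ± 0.052) and Mcm5 did not pass the test (-0.019 ± 0.047). Mcm6 rose there by 0.11 ± 0.047, a call that ended on leaving out any of 5 of the 6 control libraries, all but vehicle replicate 1 (adjusted p from 0.0528 to 0.201). That call also ended with upper-quartile scaling (0.144), library size alone (0.583), no filter (0.0672) and DESeq2 (0.0696).

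Mcm2 (chromosome 6, 88883474 to 88898780, minus strand) was the ring subunit that fell with IFNb in both genotypes. Mcm2 had 109, 116 and 119 CPM in IFNb-treated Adar-null cells, against 573, 592 and 576 CPM in vehicle-treated Adar-null cells. In control cells Mcm2 had 430.3, 438 and 416 CPM with IFNb, against 565, 549 and 538 CPM with vehicle. The 4 groups did not overlap: IFNb-treated Adar-null cells were lowest, IFNb-treated control cells next, then vehicle-treated control cells and vehicle-treated Adar-null cells. The fall was -2.34 ± 0.045 in Adar-null cells (adjusted p = 3.65e-78) and -0.36 ± 0.041 in control cells (adjusted p = 1.32e-13), and these responses differed by -1.98 ± 0.061 (interaction, adjusted p = 8.22e-57). Per kilobase of exon Mcm2 had the highest level of the 51 members in both vehicle groups.

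All 6 helicase activation genes fell in IFNb-treated Adar-null cells, and their summed level was 40.9 ± 1.52 CPM in IFNb-treated Adar-null cells, 203 ± 4.16 CPM in vehicle-treated Adar-null cells, 219.8 ± 3.34 CPM in IFNb-treated control cells and 197 ± 10.1 CPM in vehicle-treated control cells. Cdc45 joins MCM2-7 and GINS in the active helicase. Cdc45 had 3.98, 3.46 and 2.37 CPM in IFNb-treated Adar-null cells, against 42.7, 42.1 and 38 CPM in vehicle-treated Adar-null cells. In control cells Cdc45 had 42.5, 45.3 and 41.7 CPM with IFNb, against 44.6, 40.7 and 40.6 CPM with vehicle. The 3 IFNb libraries of Adar-null cells were lowest, and the other 3 groups overlapped. Its fall of -3.66 ± 0.20 (adjusted p = 8.37e-46) was the largest of these genes, against 0.043 ± 0.086 in control cells (adjusted p = 0.701). Mcm10, which binds the loaded helicase and is needed for its activation, had 10.2, 10.8 and 8.38 CPM in IFNb-treated Adar-null cells, against 73.3, 72.6 and 71.5 CPM in vehicle-treated Adar-null cells. In control cells Mcm10 had 85.6, 88.4 and 97.2 CPM with IFNb, against 64.5, 55.2 and 64.7 CPM with vehicle. No library of Mcm10 overlapped with another group, and IFNb-treated control cells were highest. The response was -2.88 ± 0.12 in Adar-null cells and 0.56 ± 0.068 in control cells, with a difference of -3.44 ± 0.14 (interaction, adjusted p = 3.06e-50).

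GINS, a complex of Gins1 to Gins4, fell as a whole in Adar-null cells. Gins3 had 9.47, 6.92 and 8.7 CPM in IFNb-treated Adar-null cells, against 22.6, 21.1 and 20 CPM in vehicle-treated Adar-null cells. In control cells Gins3 had 23.1, 21 and 23.1 CPM with IFNb, against 22.8, 23.8 and 18.2 CPM with vehicle. Gins3 was lowest in the IFNb libraries of Adar-null cells, with -1.36 ± 0.15 there (adjusted p = 2.15e-15), the smallest fall of the helicase activation genes, and 0.046 ± 0.12 in control cells. Gins4 had 15.9, 15.5 and 15.3 CPM in IFNb-treated Adar-null cells, against 43, 46.9 and 50.3 CPM in vehicle-treated Adar-null cells. In control cells Gins4 had 43.1, 39.2 and 33.5 CPM with IFNb, against 47.3, 49.8 and 45 CPM with vehicle. Gins4 fell in both genotypes, with -1.58 ± 0.11 in Adar-null cells (adjusted p = 1.87e-28) and -0.30 ± 0.086 in control cells (adjusted p = 0.00173). The fall in control cells lost its call when IFNb replicate 3 was left out (adjusted p = 0.0555). Gins1 (-2.77 ± 0.32) and Gins2 (-2.2 ± 0.26) fell in Adar-null cells and did not pass the test in control cells (0.030 ± 0.17 and 0.064 ± 0.15). Exons of Gse1 on the opposite strand cover 70.7% of the exon length of Gins2. With IFNb Gse1 fell in Adar-null cells (-0.28, adjusted p = 0.000871) and rose in control cells (0.62, adjusted p = 4.64e-13). The level and the fold changes of Gins2 are therefore uncertain.

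The 5 kinase, phosphatase and cyclin genes of initiation fell in IFNb-treated Adar-null cells, and 3 of them rose in control cells. Their summed level was 87.3 ± 4.6 CPM in IFNb-treated Adar-null cells, 231 ± 4.87 CPM in vehicle-treated Adar-null cells, 292 ± 5.9 CPM in IFNb-treated control cells and 232 ± 9.49 CPM in vehicle-treated control cells. Ccne1 (chromosome 7, 38097984 to 38107490, minus strand) encodes cyclin E1, which activates CDK2 at the entry into S phase. Ccne1 had 5.11, 5.71 and 5.54 CPM in IFNb-treated Adar-null cells, against 24.7, 22.5 and 23.7 CPM in vehicle-treated Adar-null cells. In control cells Ccne1 had 76.4, 76.8 and 73.6 CPM with IFNb, against 24.9, 25.9 and 25.6 CPM with vehicle. No group overlapped with another, with IFNb-treated Adar-null cells lowest and IFNb-treated control cells highest by a wide margin. With IFNb the log2 fold change of Ccne1 was -2.10 ± 0.16 in Adar-null cells (adjusted p = 1.83e-26) and, in control cells, 1.57 ± 0.089 (adjusted p = 2.36e-34), the largest rise of the 51 members. Ccne2, the second cyclin E, moved the same way, with -1.43 ± 0.32 in Adar-null cells and 1.18 ± 0.20 in control cells. Exons of Ints8 on the opposite strand cover 10.5% of the exon length of Ccne2. Ints8 rose with IFNb in Adar-null cells (0.28) and in control cells (0.34), so the level of Ccne2 is uncertain. Ccne2 was rank 50 or 51 of the 51 members per kilobase of exon in every group, and its mean was 1.8 ± 0.578 CPM in IFNb-treated Adar-null cells, 4.77 ± 0.798 CPM in vehicle-treated Adar-null cells, 11.6 ± 1.92 CPM in IFNb-treated control cells and 5.16 ± 1.32 CPM in vehicle-treated control cells. Cdc25a encodes the phosphatase that removes inhibitory phosphate from CDK2. Cdc25a had 40, 42.1 and 45.2 CPM in IFNb-treated Adar-null cells, against 77.4, 83.4 and 82.4 CPM in vehicle-treated Adar-null cells. In control cells Cdc25a had 135, 126 and 125 CPM with IFNb, against 93.3, 76.8 and 81.5 CPM with vehicle. Cdc25a was lowest in the IFNb libraries of Adar-null cells and highest in the IFNb libraries of control cells, and the vehicle groups overlapped. Its responses were -0.93 ± 0.073 (adjusted p = 3.55e-23) in Adar-null cells and 0.62 ± 0.060 (adjusted p = 7.63e-17) in control cells.

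Cdc7 and Dbf4 are the catalytic and the activating subunit of 1 kinase, and IFNb moved them differently in control cells. Dbf4 (chromosome 5, 8396969 to 8422725, minus strand) fell there, while Cdc7 did not pass the test. Dbf4 had 28.2, 32.2 and 32.1 CPM in IFNb-treated Adar-null cells, against 94.4, 97.6 and 101 CPM in vehicle-treated Adar-null cells. In control cells Dbf4 had 54.8, 56.1 and 50.7 CPM with IFNb, against 94.9, 104 and 90.5 CPM with vehicle. The vehicle groups overlapped, IFNb-treated control cells lay below them and IFNb-treated Adar-null cells lowest of all. Dbf4 changed by -1.66 ± 0.078 in Adar-null cells (adjusted p = 7.06e-42) and by -0.84 ± 0.068 in control cells (adjusted p = 9.05e-22), the largest fall of the members in control cells, and the responses differed by -0.81 ± 0.10 (adjusted p = 1.11e-11). Cdc7 had 6.75 ± 0.929 CPM in IFNb-treated Adar-null cells, 23.9 ± 1.18 CPM in vehicle-treated Adar-null cells, 22.5 ± 2.32 CPM in IFNb-treated control cells and 20.9 ± 0.768 CPM in vehicle-treated control cells. Its response was -1.81 ± 0.15 in Adar-null cells and 0.11 ± 0.12 in control cells.

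The sliding clamp gene Pcna and the 5 genes of its loader, replication factor C, fell in IFNb-treated Adar-null cells. Their summed level was 164 ± 4.44 CPM in IFNb-treated Adar-null cells, 419 ± 5.84 CPM in vehicle-treated Adar-null cells, 402 ± 5.85 CPM in IFNb-treated control cells and 412 ± 30.7 CPM in vehicle-treated control cells. In control cells the members of this machine went different ways: Pcna and Rfc1 rose, Rfc2 and Rfc4 fell, and Rfc3 (-0.092 ± 0.093) and Rfc5 (-0.22 ± 0.10) did not pass the test. Rfc4 had 6.63, 9.62 and 6.64 CPM in IFNb-treated Adar-null cells, against 44.7, 44.5 and 39.9 CPM in vehicle-treated Adar-null cells. In control cells Rfc4 had 27.6, 28 and 29 CPM with IFNb, against 44.8, 42.7 and 37.4 CPM with vehicle. Rfc4 was lowest in IFNb-treated Adar-null cells and next in IFNb-treated control cells, and the vehicle groups overlapped. It changed by -2.48 ± 0.14 in Adar-null cells (adjusted p = 1.16e-37), the largest fall of the loader, and by -0.56 ± 0.10 in control cells (adjusted p = 2.37e-07). Rfc2 had 27.6, 27.7 and 27.4 CPM in IFNb-treated Adar-null cells, against 81.9, 84.1 and 91.6 CPM in vehicle-treated Adar-null cells. In control cells Rfc2 had 66, 58.8 and 63.1 CPM with IFNb, against 87, 80.3 and 80 CPM with vehicle. Rfc2 had the same order of groups, with -1.64 ± 0.082 in Adar-null cells and -0.40 ± 0.067 in control cells (adjusted p = 1.56e-07).

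Rfc1, the large loader subunit, had the smallest fall of the clamp and loader genes. Rfc1 had 82, 77.9 and 89.5 CPM in IFNb-treated Adar-null cells, against 137, 141 and 147 CPM in vehicle-treated Adar-null cells. In control cells Rfc1 had 151, 147 and 143 CPM with IFNb, against 146, 125 and 131 CPM with vehicle. The IFNb libraries of Adar-null cells lay below the 9 others, which overlapped. The fall in Adar-null cells was -0.77 ± 0.056 (adjusted p = 5.34e-25), to 58.6% of the vehicle level. The rise in control cells, 0.13 ± 0.052 (adjusted p = 0.0244), lost its call when control IFNb replicate 1 or control vehicle replicate 2 or 3 was left out (adjusted p from 0.085 to 0.218), and also with upper-quartile scaling (0.0828), library size alone (0.378) and DESeq2 (0.0847). Rfc3 (-1.26 ± 0.11) and Rfc5 (-1.74 ± 0.13) fell in Adar-null cells. With control IFNb replicate 2 or control vehicle replicate 3 left out, Rfc5 was called lower in control cells (adjusted p of 0.0293 and 0.0373), as it was with upper-quartile scaling (0.0292) and library size alone (0.0103). Pcna had 18.7 ± 2.73 CPM in IFNb-treated Adar-null cells, 74 ± 4.18 CPM in vehicle-treated Adar-null cells, 98.8 ± 0.725 CPM in IFNb-treated control cells and 80.9 ± 7.47 CPM in vehicle-treated control cells. Its response was -2.0 ± 0.10 in Adar-null cells and 0.29 ± 0.064 in control cells, and the annotation lists 2 Pcna pseudogenes, so reads of near-identical copies leave its level uncertain.

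RPA coats single-stranded DNA at the fork as a trimer of Rpa1, Rpa2 and Rpa3, and all 3 genes fell in IFNb-treated Adar-null cells. Their summed level was 105 ± 10.1 CPM in IFNb-treated Adar-null cells, 317 ± 3.86 CPM in vehicle-treated Adar-null cells, 317 ± 6.78 CPM in IFNb-treated control cells and 312 ± 17.1 CPM in vehicle-treated control cells. Rpa2 had 7.2, 11.4 and 11.2 CPM in IFNb-treated Adar-null cells, against 46.9, 41.3 and 43 CPM in vehicle-treated Adar-null cells. In control cells Rpa2 had 50.4, 56.4 and 50.2 CPM with IFNb, against 43.4, 33.6 and 38.3 CPM with vehicle. Rpa2 was lowest in the IFNb libraries of Adar-null cells and highest in the IFNb libraries of control cells. Its response was -2.10 ± 0.13 in Adar-null cells (adjusted p = 2.49e-32) and 0.45 ± 0.088 in control cells (adjusted p = 5.26e-06). Rpa3 had 5.68, 5.71 and 8.54 CPM in IFNb-treated Adar-null cells, against 17, 17.4 and 19.1 CPM in vehicle-treated Adar-null cells. In control cells Rpa3 had 13.2, 16.3 and 14.6 CPM with IFNb, against 14.8, 19.1 and 15 CPM with vehicle. Rpa3 was lowest in IFNb-treated Adar-null cells, and the control groups overlapped. It had the smallest fall of the trimer, -1.41 ± 0.17 (adjusted p = 6.22e-14), with -0.15 ± 0.14 in control cells (adjusted p = 0.382). Rpa1, the large subunit, fell in Adar-null cells (-1.53 ± 0.054) and had -0.044 ± 0.048 in control cells, which did not pass the test.

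All 9 polymerase and primase genes fell in IFNb-treated Adar-null cells, over a range from -3.26 for Pole to -0.50 for Pold3 on the log2 scale. Their summed level was 122 ± 3.87 CPM in IFNb-treated Adar-null cells, 504 ± 15.8 CPM in vehicle-treated Adar-null cells, 503 ± 9.34 CPM in IFNb-treated control cells and 476 ± 19.3 CPM in vehicle-treated control cells. Pole encodes the catalytic subunit of the leading-strand polymerase epsilon. Pole had 8.9, 10.7 and 7.59 CPM in IFNb-treated Adar-null cells, against 82.1, 86.8 and 93.1 CPM in vehicle-treated Adar-null cells. In control cells Pole had 77.8, 79.4 and 81.8 CPM with IFNb, against 83.3, 81.5 and 76.9 CPM with vehicle. The IFNb libraries of Adar-null cells lay below all others, and the control groups overlapped. Pole fell to 10.4% of the vehicle level in Adar-null cells (-3.26 ± 0.12, adjusted p = 2.18e-58), against -0.016 ± 0.065 in control cells (adjusted p = 0.855). Pole2, its second subunit, fell by 2.62 on the log2 scale. Within polymerase delta, the lagging-strand enzyme, the catalytic subunit Pold1 (-3.08 ± 0.10) fell more steeply than Pold2 (-1.45 ± 0.10) and Pold3, by point estimates whose differences were not tested. Pold3 had 33.7, 35.5 and 31.6 CPM in IFNb-treated Adar-null cells, against 50.2, 44.9 and 48.5 CPM in vehicle-treated Adar-null cells. In control cells Pold3 had 49.3, 53.2 and 49.3 CPM with IFNb, against 41.6, 38.8 and 43 CPM with vehicle. Pold3 was lowest in IFNb-treated Adar-null cells, and in control cells the IFNb libraries lay above the vehicle libraries. Its fall in Adar-null cells, -0.50 ± 0.085 (adjusted p = 7.82e-08), left 70.5% of the vehicle level and did not pass the test against a 1.5-fold change (adjusted p = 1). In control cells Pold3 rose by 0.30 ± 0.081 (adjusted p = 0.00082).

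Polymerase alpha and primase, which start each new strand, comprise Pola1, Pola2, Prim1 and Prim2. In Adar-null cells Prim1, the catalytic primase subunit, had a log2 fold change of -3.05 ± 0.19, Prim2 of -1.90 ± 0.11, Pola1 of -1.97 ± 0.090 and Pola2 of -1.78 ± 0.15. Pola2 alone of the 4 rose with IFNb in control cells (0.72 ± 0.10). Its mean was 7.63 ± 0.279 CPM in IFNb-treated Adar-null cells, 26.4 ± 1.68 CPM in vehicle-treated Adar-null cells, 36.5 ± 1.5 CPM in IFNb-treated control cells and 22.2 ± 2.6 CPM in vehicle-treated control cells. Pola1 (-0.021 ± 0.066), Prim1 (0.12 ± 0.10), Prim2 (-0.055 ± 0.081), Pold1 (0.020 ± 0.058), Pold2 (0.10 ± 0.083) and Pole2 (0.015 ± 0.13) did not pass the test in control cells.

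The 2 genes of Okazaki fragment maturation had a summed level of 33.1 ± 2.01 CPM in IFNb-treated Adar-null cells, 206 ± 8.72 CPM in vehicle-treated Adar-null cells, 223 ± 7.12 CPM in IFNb-treated control cells and 194 ± 7.28 CPM in vehicle-treated control cells. Lig1 encodes the ligase that joins the fragments. Lig1 had 11.2, 12.6 and 9.97 CPM in IFNb-treated Adar-null cells, against 121, 126 and 116 CPM in vehicle-treated Adar-null cells. In control cells Lig1 had 118, 109 and 121 CPM with IFNb, against 119, 111 and 108 CPM with vehicle. Lig1 was lowest in the IFNb libraries of Adar-null cells, and the other 3 groups overlapped. It fell to 9.33% of the vehicle level in Adar-null cells (-3.42 ± 0.11, adjusted p = 4.7e-66) and had 0.041 ± 0.057 in control cells (adjusted p = 0.565). Fen1 encodes the flap nuclease that trims the fragments. Fen1 had 22, 22.4 and 21 CPM in IFNb-treated Adar-null cells, against 88.2, 85.6 and 80 CPM in vehicle-treated Adar-null cells. In control cells Fen1 had 105, 107 and 109 CPM with IFNb, against 81.2, 84.8 and 78 CPM with vehicle. Fen1 was lowest in IFNb-treated Adar-null cells and highest in IFNb-treated control cells. Its response was -1.96 ± 0.086 (adjusted p = 1.09e-45) in Adar-null cells and 0.40 ± 0.060 (adjusted p = 8.68e-09) in control cells. An annotated antisense gene, Gm10143, covers 78.8% of the exon length of Fen1, so its level is uncertain.

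The 5 nucleotide supply genes all fell in Adar-null cells, and 4 of them rose in control cells. Their summed level was 71.1 ± 2.55 CPM in IFNb-treated Adar-null cells, 670.3 ± 21.4 CPM in vehicle-treated Adar-null cells, 745 ± 13.2 CPM in IFNb-treated control cells and 648 ± 15.6 CPM in vehicle-treated control cells. Tk1 (chromosome 11, 117815519 to 117826087, minus strand) encodes the thymidine kinase of S phase. Tk1 had 1.89, 1.65 and 0.791 CPM in IFNb-treated Adar-null cells, against 57, 66.3 and 55.4 CPM in vehicle-treated Adar-null cells. In control cells Tk1 had 61.8, 65.9 and 67 CPM with IFNb, against 56.4, 57.2 and 58.9 CPM with vehicle. The IFNb libraries of Adar-null cells lay far below all others, and in control cells the IFNb libraries lay just above the vehicle libraries. Tk1 fell to 2.41% of the vehicle level in Adar-null cells (-5.38 ± 0.29, adjusted p = 8.59e-59), at 10, 11 and 5 counts with IFNb. By point estimate this was the largest fall of the 51 members, and its difference from that of Cdc6 was not tested. The rise of Tk1 in control cells, 0.18 ± 0.074 (adjusted p = 0.0358), lost its call when control IFNb replicate 2 or 3 or control vehicle replicate 1 or 2 was left out (adjusted p from 0.079 to 0.119). The call of Tk1 also ended with upper-quartile scaling (0.0828), library size alone (0.246), no filter (0.0535) and DESeq2 (0.115). Rrm2 (chromosome 12, 24708254 to 24714146, plus strand) encodes the small, S-phase subunit of ribonucleotide reductase and Rrm1 the large one. Rrm2 had 10.8, 11.7 and 8.07 CPM in IFNb-treated Adar-null cells, against 238, 248 and 226 CPM in vehicle-treated Adar-null cells. In control cells Rrm2 had 299, 302 and 295 CPM with IFNb, against 249, 225 and 237 CPM with vehicle. Rrm2 was lowest in IFNb-treated Adar-null cells and highest in IFNb-treated control cells in every library. It fell to 4.29% of the vehicle level in Adar-null cells (-4.54 ± 0.11, adjusted p = 3.35e-84) and rose in control cells (0.33 ± 0.048, adjusted p = 1.21e-09). Rrm1 changed by -2.67 ± 0.060 in Adar-null cells. Its rise of 0.13 ± 0.046 in control cells lost its call when control IFNb replicate 1 or control vehicle replicate 3 was left out (adjusted p of 0.0814 and 0.148), and with upper-quartile scaling (0.0565) or library size alone (0.351).

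Dut encodes the enzyme that hydrolyses dUTP and so keeps uracil out of DNA. Dut had 10.6, 11.1 and 10.4 CPM in IFNb-treated Adar-null cells, against 60.3, 66.5 and 61.3 CPM in vehicle-treated Adar-null cells. In control cells Dut had 63, 60.1 and 54.2 CPM with IFNb, against 62.9, 63.8 and 64.8 CPM with vehicle. Dut was lowest in the IFNb libraries of Adar-null cells, with -2.55 ± 0.12 there (adjusted p = 9.11e-47), and did not pass the test in control cells (-0.11 ± 0.072, adjusted p = 0.178). Tyms, thymidylate synthase, had 2.56 ± 0.877 CPM in IFNb-treated Adar-null cells, 17.3 ± 0.786 CPM in vehicle-treated Adar-null cells, 19.6 ± 1.51 CPM in IFNb-treated control cells and 13.4 ± 2.62 CPM in vehicle-treated control cells. Its response was -2.71 ± 0.23 in Adar-null cells and 0.55 ± 0.14 in control cells. The table also counts a transcribed pseudogene, Tyms-ps, with a log2 fold change of -2.27 in Adar-null cells and 0.21 in control cells (adjusted p = 3.85e-31 and 0.0589). Reads of the near-identical copies may be divided between the symbols, so the level of Tyms is uncertain.

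The 3 chromatin genes act where replication copies chromatin: Uhrf1 brings the maintenance DNA methyltransferase to new DNA, and Chaf1a and Chaf1b are the large and middle subunits of chromatin assembly factor 1. All 3 fell in Adar-null cells and rose in control cells, with a summed level of 37.1 ± 1.25 CPM in IFNb-treated Adar-null cells, 407 ± 21.7 CPM in vehicle-treated Adar-null cells, 488 ± 8.14 CPM in IFNb-treated control cells and 366 ± 3.36 CPM in vehicle-treated control cells. Uhrf1 had 13.4, 17.4 and 16 CPM in IFNb-treated Adar-null cells, against 238, 241 and 217 CPM in vehicle-treated Adar-null cells. In control cells Uhrf1 had 286, 277 and 278 CPM with IFNb, against 203, 209 and 202 CPM with vehicle. No 2 groups of Uhrf1 (chromosome 17, 56303337 to 56323486, plus strand) overlapped, and IFNb-treated control cells were highest. Uhrf1 fell to 6.8% of the vehicle level in Adar-null cells (-3.88 ± 0.091, adjusted p = 2.27e-81) and rose in control cells (0.45 ± 0.047, adjusted p = 4.11e-15). Chaf1a had 18.9, 17.1 and 16.9 CPM in IFNb-treated Adar-null cells, against 135, 139 and 127 CPM in vehicle-treated Adar-null cells. In control cells Chaf1a had 155, 149 and 152 CPM with IFNb, against 119, 121 and 121 CPM with vehicle. Chaf1a had the same order of groups without overlap, with -2.93 ± 0.088 in Adar-null cells (adjusted p = 7.07e-66) and 0.33 ± 0.052 in control cells (adjusted p = 1.75e-08). Exons of Ubxn6 on the opposite strand cover 33.6% of the exon length of Chaf1a, and Ubxn6 rose in IFNb-treated Adar-null cells (0.44). Chaf1b changed by -3.44 ± 0.19 in Adar-null cells and by 0.44 ± 0.082 in control cells.

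**Figure D4:**
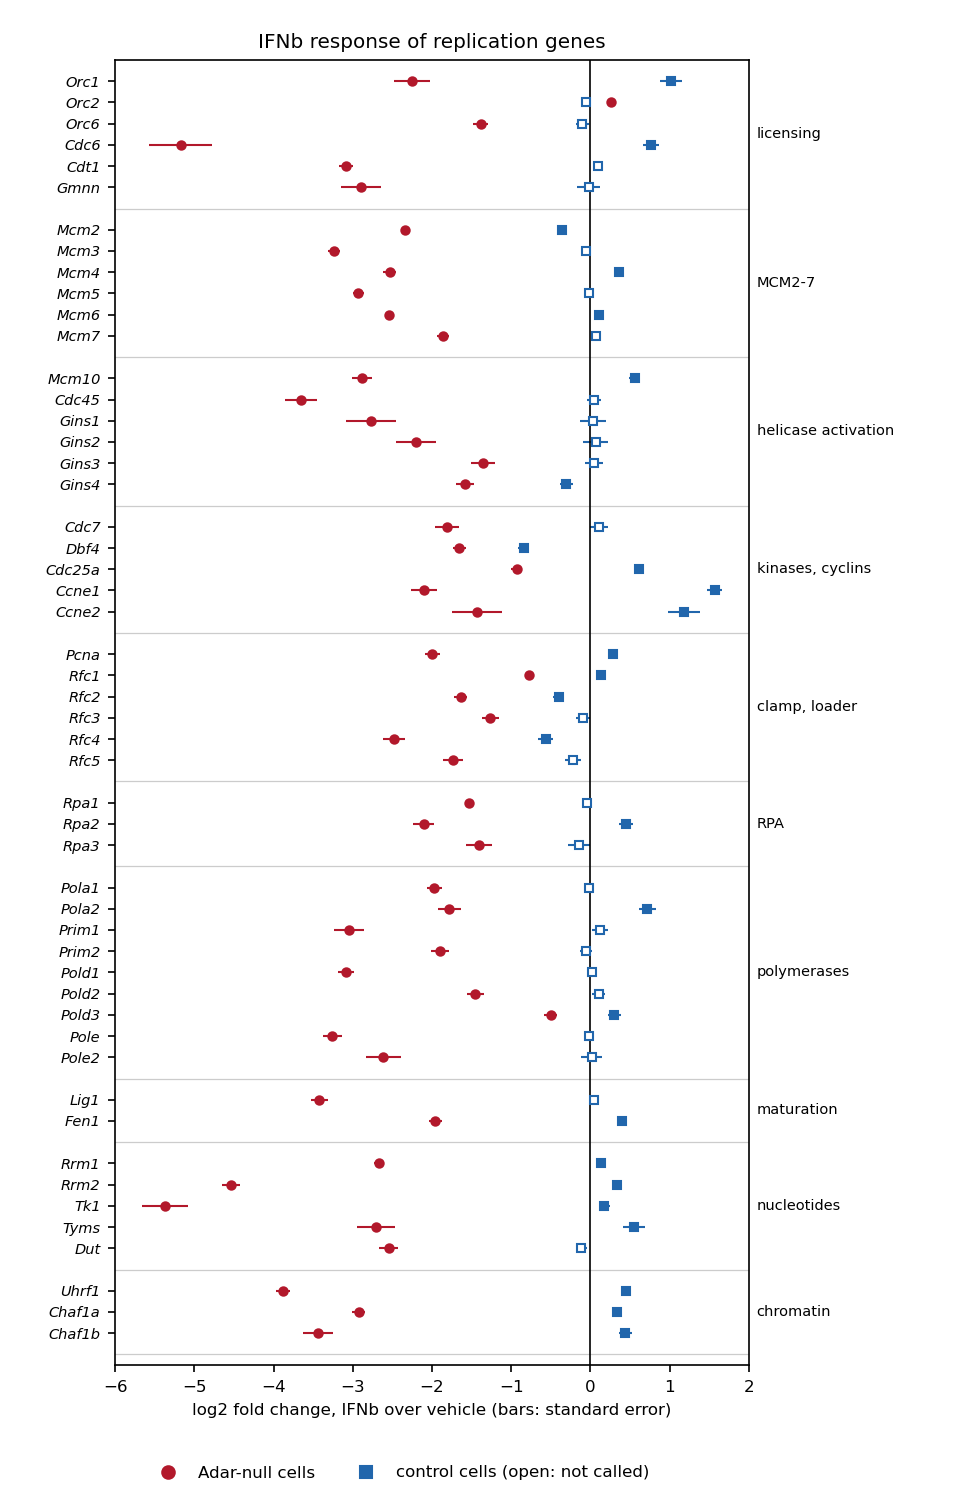
Log2 fold change of each member, IFNb over vehicle, in Adar-null cells (red circles) and in control cells (blue squares, open where not called); bars are standard errors and rows are grouped by complex. The Adar-null values lie left of 0 for all members except Orc2, from -5.38 for Tk1 to -0.50 for Pold3, while the control values run from -0.84 for Dbf4 to 1.57 for Ccne1.

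Without interferon the genotypes were close for these genes. The called members under vehicle were Mcm10 (0.24 ± 0.071, adjusted p = 0.0202), Uhrf1 (0.18 ± 0.048, adjusted p = 0.00927) and Cdt1 (0.17 ± 0.051, adjusted p = 0.0255), each higher in Adar-null cells by less than 1.5-fold. For these 3 genes all Adar-null vehicle libraries lay above all control vehicle libraries. Such separation was seen upwards for 11 members and downwards for 1, beside 10.5% and 11.8% of all genes tested. The call of Cdt1 ended when Adar-null vehicle replicate 1 or 2 or any control vehicle replicate was left out (adjusted p from 0.0552 to 0.21), and under DESeq2 (0.113). That of Mcm10 ended with replicate 1 or 2 of the Adar-null vehicle libraries, or replicate 2 of the control ones, left out (0.0736 to 0.275), and under DESeq2 (0.112). That of Uhrf1 ended when Adar-null vehicle replicate 1 or 2 was left out (0.0759 and 0.0967). In turn Mcm7 and Chaf1a were called higher when Adar-null vehicle replicate 3 was left out (0.0348 and 0.028). Chaf1a was also called higher with RLE scaling (0.0435), upper-quartile scaling (0.0403), Rn45s left out (0.0422) and Adar-null IFNb replicate 1 or 3 left out (0.0459 and 0.0437). Mcm3 and Mcm4 were called higher with control vehicle replicate 1 left out (0.0107 and 0.0464), and Tyms with control vehicle replicate 3 left out (0.0229). Over the 51 members the log2 fold change under vehicle ran from -0.19 for Gins2 to 0.37 for Tyms.

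Levels between genes were compared per kilobase of merged exons, which changes their order. In vehicle-treated Adar-null cells the highest members were Mcm2 (172 CPM per kb), Rrm2 (108) and Mcm3 (92.1), and the lowest was Ccne2 (1.49). In vehicle-treated control cells the same 3 led, at 163, 108 and 84.8 CPM per kb. In IFNb-treated control cells Rrm2 (136) stood above Mcm2 (127). In IFNb-treated Adar-null cells the order was led by Orc2 (38.8 CPM per kb), Mcm2 (34) and Rfc1 (17.3), and Cdc6 was last (0.167). Rrm2 held rank 27 of 51 in IFNb-treated Adar-null cells, against rank 2 in vehicle-treated Adar-null cells. Tk1 held rank 46 in IFNb-treated Adar-null cells, against rank 11 in vehicle-treated Adar-null cells, while Ccne1 held rank 14 in IFNb-treated control cells, against rank 37 in vehicle-treated control cells. The lowest total of a member over 3 libraries was 14 counts, for Cdc6 in IFNb-treated Adar-null cells, and 89 or more in the other groups, for Ccne2.

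Other replication genes, 32 tested of 33 listed, mostly fell in Adar-null cells as well, with some exceptions. With IFNb 24 of them fell, 3 rose and 5 did not pass the test in Adar-null cells (median -1.55), and in control cells 6 rose, 12 fell and 14 did not pass the test (median -0.135). Over all genes 35.7% fell and 36.6% rose in Adar-null cells, and 26.5% fell and 26.5% rose in control cells. The lowest were Chtf18 (-4.30 ± 0.28), a subunit of an alternative clamp loader, Clspn (-4.28 ± 0.24), the fork protein claspin, and Ccna2 (-4.17 ± 0.13), cyclin A2. The highest were Orc4 (0.72 ± 0.080), Chtf8 (0.31 ± 0.049) and Orc5 (0.30 ± 0.088). Of the core ORC subunits, Orc2, Orc4 and Orc5 thus rose with IFNb in Adar-null cells. Their responses in control cells were -0.052 ± 0.054 for Orc2, -0.028 ± 0.085 for Orc4 and -0.39 ± 0.10 for Orc5, the last being a fall (adjusted p = 0.000412). Orc3 changed by -0.26 ± 0.062 in Adar-null cells (adjusted p = 0.000102).

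Of 21 tested genes among 22 listed for other steps of nucleotide metabolism, 14 fell, 5 rose and 2 did not pass the test with IFNb in Adar-null cells (median -0.606), and in control cells 8 rose, 3 fell and 10 did not pass the test (median 0.0479), beside the same shares over all genes. Among the lowest were Shmt1 (-2.23 ± 0.14) of the folate cycle and Dtymk (-1.83 ± 0.10), thymidylate kinase. Samhd1, which breaks down deoxynucleotides, was highest, with 106 ± 5.06 CPM in IFNb-treated Adar-null cells, 23 ± 1.1 CPM in vehicle-treated Adar-null cells, 96.2 ± 2.5 CPM in IFNb-treated control cells and 26 ± 1.93 CPM in vehicle-treated control cells. It rose in both genotypes (2.2 ± 0.084 in Adar-null and 1.89 ± 0.083 in control cells). Tk2, the mitochondrial thymidine kinase, rose in Adar-null cells (0.98 ± 0.12) and had -0.007 ± 0.14 in control cells. Rrm2b encodes the small reductase subunit that p53 is known to induce, the counterpart of Rrm2. Rrm2b had 48.5, 50.2 and 47.3 CPM in IFNb-treated Adar-null cells, against 31, 26.2 and 28 CPM in vehicle-treated Adar-null cells. In control cells Rrm2b had 22.6, 23.6 and 20.3 CPM with IFNb, against 34.8, 35.3 and 33.8 CPM with vehicle. Rrm2b was highest in IFNb-treated Adar-null cells and lowest in IFNb-treated control cells, the reverse of Rrm2. It rose by 0.78 ± 0.090 in Adar-null cells (adjusted p = 9.26e-14) and changed by -0.64 ± 0.10 in control cells (adjusted p = 2.39e-08), and the responses differed by 1.43 ± 0.14 (adjusted p = 1.36e-17).

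Genes of mitosis were set beside the replication genes. With IFNb all 30 fell in Adar-null cells (median -3.43), beside 35.7% of all genes, from -5.08 for D2Ertd750e, which encodes a kinetochore protein, to -1.05 for Smc4, a condensin subunit. In control cells 27 of the 30 fell (median -0.397), where 5 of the 51 replication genes did (median 0.07) and 26.5% of all genes. Under vehicle 4 mitosis genes were higher in Adar-null cells, beside 2.47% of all genes. The summed level of the mitosis genes was 395 to 449.9 CPM in IFNb-treated Adar-null cells, 3561 to 3797 CPM in vehicle-treated Adar-null cells, 2430 to 2556 CPM in IFNb-treated control cells and 3401 to 3456 CPM in vehicle-treated control cells. The difference between the lists was not tested. Beside the fall of the members, 6 of 7 melanocyte markers also fell with IFNb in Adar-null cells (median -0.678), against 35.7% of all genes. In control cells 3 of the 7 fell (median -0.0606), against 26.5% of all genes. The share of Rn45s was higher with IFNb in both genotypes. With Rn45s left out before scaling, the same counts of 50 members lower and 1 higher in Adar-null cells, and 21 higher and 5 lower in control cells, were obtained.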

How the data were processed

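RNA of 12 libraries was analysed, 3 in each of 4 groups. Ribosomal RNA was removed and strand-marking, paired-end libraries were made, per the labels' protocols. The submitters' processing notes name HTSeq 0.6.1p1, Bowtie2 2.2.4, Trimmomatic 0.33, bcl2fastq 2.19.1 and DESeq2, and the build mm10. For the annotation and the counting's strand setting, nothing is given in the sources used here. Raw read counts per gene symbol, which the authors had not normalised, fill the deposited file (23336 symbols, 17070 with a count). Its reads carry no molecular identifiers, so floors cover counting error only.

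From these counts filterByExpr by group kept 11561 genes, library sizes were scaled by TMM (factors 0.944 to 1.04), and 1 term per group was fitted to all 12 libraries with the edgeR quasi-likelihood test (edgeR 4.0.16, R 4.3.3, robust estimation, common biological coefficient of variation 0.0397). The threshold was an adjusted p (Benjamini-Hochberg) of 0.05 in each of 5 comparisons: IFNb against vehicle in each genotype, Adar-null against control under each treatment, and the interaction. Standard errors are Wald errors from the fitted variance, not below counting error. The alternatives included limma-voom (limma 3.58.1) and the DESeq2 Wald test (DESeq2 1.42.0). The fit was tested on simulated data. Exon lengths, exon overlaps and strands come from GENCODE M21 (GRCm38), and gene coordinates and promoters from RefSeq (GRCm38.p6).

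The members and all gene lists were chosen with earlier results of these data known. Described in full are, in each complex, the members with the lowest and highest log2 fold change in the Adar-null response, members called against the majority of their comparison and members called under vehicle. Of the other lists the lowest 3 and highest 3 are named, apart from items not reported here. Rrm2, Rrm2b, Orc3 and the members with group means were added after their values were seen. Of the 33 other replication genes, Ticrr did not match a symbol of the table.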

Additional observations from a re-analysis of the deposited data

Results flagged for a closer look

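All 51 members answered IFNb differently in the 2 genotypes by the interaction test (edgeR quasi-likelihood, Benjamini-Hochberg adjusted p under 0.05 over 11561 genes), beside 30.7% lower and 28.6% higher of all genes tested, and each difference is given as the log2 response in Adar-null minus that in control cells. Among licensing genes it was -3.28 for Orc1, 0.31 for Orc2, -1.28 for Orc6, -5.94 for Cdc6, -3.18 for Cdt1 and -2.88 for Gmnn. Orc2 was the single positive value. In the helicase ring the difference was -1.98 for Mcm2, -3.18 for Mcm3, -2.90 for Mcm4, -2.91 for Mcm5, -2.65 for Mcm6 and -1.93 for Mcm7. Among helicase activators it was -3.44 for Mcm10, -3.70 for Cdc45, -2.80 for Gins1, -2.26 for Gins2, -1.40 for Gins3 and -1.28 for Gins4. Among kinase and cyclin genes it was -1.92 for Cdc7, -0.81 for Dbf4, -1.55 for Cdc25a, -3.67 for Ccne1 and -2.61 for Ccne2. Cdc6 and Ccne1 are among the 21 members that fell in Adar-null cells and rose in control cells, so their differences exceed either response.

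For the clamp and its loader the difference was -2.28 for Pcna, -0.90 for Rfc1, -1.24 for Rfc2, -1.17 for Rfc3, -1.92 for Rfc4 and -1.52 for Rfc5. For RPA it was -1.48 for Rpa1, -2.56 for Rpa2 and -1.26 for Rpa3. Among polymerase and primase genes it was -1.95 for Pola1, -2.50 for Pola2, -3.17 for Prim1, -1.84 for Prim2, -3.10 for Pold1, -1.55 for Pold2, -0.81 for Pold3, -3.24 for Pole and -2.63 for Pole2. The smallest difference of the fork enzymes was that of Pold3. For maturation it was -3.46 for Lig1 and -2.35 for Fen1. Among nucleotide genes it was -2.80 for Rrm1, -4.88 for Rrm2, -5.55 for Tk1, -3.26 for Tyms and -2.44 for Dut. For the chromatin genes it was -4.33 for Uhrf1, -3.26 for Chaf1a and -3.88 for Chaf1b.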

How the results depend on the processing

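The alternatives were 10 changes of scaling, filter, test, threshold or model, and 12 fits that each left out 1 library. In Adar-null cells 50 members were lower and 1 higher with IFNb under all of them except the test against a 1.5-fold change, where 49 were lower and 0 higher (Pold3 and Orc2 lost their calls). In that test 49 were lower and 0 higher for the genotype comparison under IFNb (Pold3 and Orc2 again), and 50 lower and 0 higher for the interaction. Medians kept their sign: the Adar-null response was -2.35 with library size alone and -2.33 to -2.16 (-2.327 to -2.155) without 1 library. Under IFNb the genotype median was -2.42 with upper-quartile scaling and -2.58 to -2.43 without 1 library. The interaction median was -2.65 to -2.47 without 1 library. Some shifts of each median exceeded its spread between libraries. This spread was 0.045 for the Adar-null response, 0.0365 for the genotypes under IFNb and 0.0706 for the interaction.

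The control response was less stable. With library size alone 10 members were lower, and the median turned to -0.0053. Newly called lower there were Orc2, Mcm3, Rfc5, Rpa1 and Dut (adjusted p = 0.0465, 0.0263, 0.0103, 0.0316 and 0.0204). Of all called genes 39.4% were higher in place of 50%, and the cause was not tested. Against a 1.5-fold change 3 were higher and 1 was lower, and of all genes called in that test 58.9% were higher. Without 1 library 18 to 21 were higher and 4 to 6 lower. Members higher under vehicle numbered 1 with DESeq2, 0 against a 1.5-fold change and 0 to 5 without 1 library. Over all genes the test against a 1.5-fold change called 3301 in place of 8364 (Adar-null response), 980 in place of 6133 (control response), 3306 in place of 8388 (genotype under IFNb), 17 in place of 753 (vehicle) and 2592 in place of 6855 (interaction). Vehicle calls numbered 324 with DESeq2, 393 and 463 with Adar-null vehicle replicate 1 or 2 left out, and 308 with control vehicle replicate 2 left out. With the 7-letter E2F forms 27 of 42 members (64.3%) had a match, beside 10.9% of all genes with a promoter window and 20.2% of tested genes outside the list.

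No pairing of libraries by replicate number was seen. Same-numbered libraries of different groups correlated between -0.1 and 0.0618 in their deviations, none of 18 pairs over 0.1. Of the 12 libraries 3 correlated best with their own number. The deviations are from means of 3 libraries and hold counting noise, so a weak pairing could be missed. With the number as a replicate block, 50 members were lower and 1 higher in the Adar-null response, and 21 were higher and 5 lower in the control response, as without it. Depth limits Cdc6 most, at 14 counts over the 3 Adar-null libraries with IFNb.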
